A study of Homo sapiens with 4 samples.

Results

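The genes described here are 51 neighbours of chromosome 11q21 to 11q23, running from MRE11 to NCAM1, measured in the human hepatocellular carcinoma line PLC8024. They were chosen by name as a run of neighbouring genes, with the differences between the sorted populations of this series already known, so their differences are a description and carry no test. The study separated the cells by flow cytometry on CD133, a surface protein that has served to enrich cells able to start liver tumours, and measured total RNA on oligonucleotide arrays. There was 1 CD133+ and 1 CD133- population, each given as RMA values on the log2 scale and as MAS5 intensities on a linear scale. Both populations came from the one line, and whether they differ in genotype was not measured here. The labels name no treatment, time, sort gate or number of cultures. Each population has 1 value per processing, so precision is limited by the number of arrays, differences could not be checked in replicates, and no p-value is given.

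Of the 51 genes, 50 had a probe set assigned to them alone, and BIRC3 was not analysed here. These 50 genes had 136 probe sets, against 19775 genes and 54675 probe sets in the whole series. Each gene is given by 1 probe set, the one whose RMA values averaged highest. A gene counted as above the floor if its higher RMA value was at least the median of that population's column, which was 5.16 in CD133+ and 5.14 in CD133-. This held for 38 of the 50 listed genes and for 13116 of the 19775 genes. In 37 of the 38 both populations were above the floor, and in ZC3H12C the CD133- value was not. The 12 listed genes below the floor are given apart, so the counts below do not stand for all members.

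The interval holds genes of varied function that were brought together by their place. MRE11 and ATM act in the response to DNA double-strand breaks, BIRC2 and BIRC3 are inhibitor of apoptosis proteins, and CASP1, CASP4 and IL18 belong to inflammasome signalling. DLAT, SDHD, ACAT1 and FDX1 work in mitochondria, and a row of matrix metalloproteinase genes, MMP7 among them, lies beside the BIRC genes. The stretch with YAP1, BIRC2 and BIRC3 is known as a site of amplification in some liver tumours, and copy number was not measured here. In bulk RNA, fewer cells of a type and less RNA per cell cannot be told apart.

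Promoter windows of 4 listed genes are shown as examples. Each of the 4 was at least 1.5-fold lower in CD133+ or shares a start region with a neighbour described below. Other listed genes also met this, CEP57 and BIRC2 among them, and their windows are not shown. Each window is RefSeq sequence of build GRCh38.p14 from 250 bases before to 50 after the gene's start, written 5′ to 3′ on the gene's strand. Capitals mark matches on either strand to the GC box letters GGGCGG, to the CCAAT box or to the TATA box letters TATAAA. The windows lie at chr11:94493795-94494094 (minus strand) for MRE11, chr11:96389763-96390062 (plus strand) for JRKL, chr11:106077412-106077711 (plus strand) for AASDHPPT and chr11:110296565-110296864 (minus strand) for RDX.
MRE11: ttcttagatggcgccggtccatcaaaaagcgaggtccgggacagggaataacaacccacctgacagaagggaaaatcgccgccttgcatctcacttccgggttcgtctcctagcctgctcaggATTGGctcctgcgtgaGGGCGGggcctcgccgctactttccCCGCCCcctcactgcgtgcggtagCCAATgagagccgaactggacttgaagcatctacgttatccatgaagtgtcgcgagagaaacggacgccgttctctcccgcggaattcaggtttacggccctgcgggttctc
JRKL: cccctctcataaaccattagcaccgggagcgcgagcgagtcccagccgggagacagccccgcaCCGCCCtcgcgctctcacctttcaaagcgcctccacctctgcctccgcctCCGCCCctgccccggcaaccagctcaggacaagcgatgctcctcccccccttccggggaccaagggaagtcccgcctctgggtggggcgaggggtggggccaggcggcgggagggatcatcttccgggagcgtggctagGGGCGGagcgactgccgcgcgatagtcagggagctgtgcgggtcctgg
AASDHPPT: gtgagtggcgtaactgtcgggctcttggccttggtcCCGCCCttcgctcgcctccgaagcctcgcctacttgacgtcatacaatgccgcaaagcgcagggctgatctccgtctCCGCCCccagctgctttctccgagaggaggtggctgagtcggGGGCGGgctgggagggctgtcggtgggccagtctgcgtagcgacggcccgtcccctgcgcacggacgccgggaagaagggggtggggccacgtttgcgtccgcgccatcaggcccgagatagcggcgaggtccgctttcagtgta
RDX: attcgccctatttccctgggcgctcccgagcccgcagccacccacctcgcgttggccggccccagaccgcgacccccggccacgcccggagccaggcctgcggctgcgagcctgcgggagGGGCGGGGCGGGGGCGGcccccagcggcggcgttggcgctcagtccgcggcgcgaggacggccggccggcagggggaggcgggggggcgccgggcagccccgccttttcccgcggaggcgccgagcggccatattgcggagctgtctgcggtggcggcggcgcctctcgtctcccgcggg

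The RDX window held 3 matches to GGGCGG, which overlap or adjoin one another. The JRKL and AASDHPPT windows also held 3 each, and the MRE11 window held 2 together with 2 matches to CCAAT. None of the 4 windows contained TATAAA. The promoter table had 45 windows for 34 of the 38 listed genes above the floor. GGGCGG was in 29 of these windows, which is 64.4%, against 45% of all 35116 windows in the table. CCAAT was in 46.7% of the members' windows and 34.6% of all, and TATAAA in 6.67% and 11.5%. All windows have the same length, the members' windows include several starts of one gene, and the counts describe letters only. The members' windows are of genes above the floor, while the table also holds windows of genes below it. The shares are therefore not matched for expression, and the part of this in their gaps was not tested.

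Most listed genes above the floor had somewhat lower RNA in CD133+. Of the 38, 32 had a lower RMA value in CD133+ and 6 a higher one, against 49.9% of the 13116 genes above the floor with a lower RMA value and 48.2% with a higher one. The median RMA difference, CD133+ minus CD133-, was -0.33 on the log2 scale over the listed genes and 0.00 over all genes. In MAS5 the median log2 ratio was -0.33 over the listed genes and 0.0049 over all genes. In 27 listed genes both processings were lower in CD133+, against 39.1% of all genes, and in 5 both were higher, against 38.8%. The lower and upper quartiles of the listed genes were -0.50 and -0.11 in RMA. No listed gene was at least 2-fold lower in both processings, against 1.09% of all genes, and none was at least 2-fold higher, against 2.25%. At 1.5-fold in both, 7 were lower, against 4.17% of all genes, and 1 was higher, against 5.32%. The 7 were CEP57, JRKL, BIRC2, AASDHPPT, ALKBH8, RDX and PPP2R1B, and the 1 was ZC3H12C. Since the genes were chosen with the differences of this contrast known, nothing is read from these shares.

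**Figure D1:**
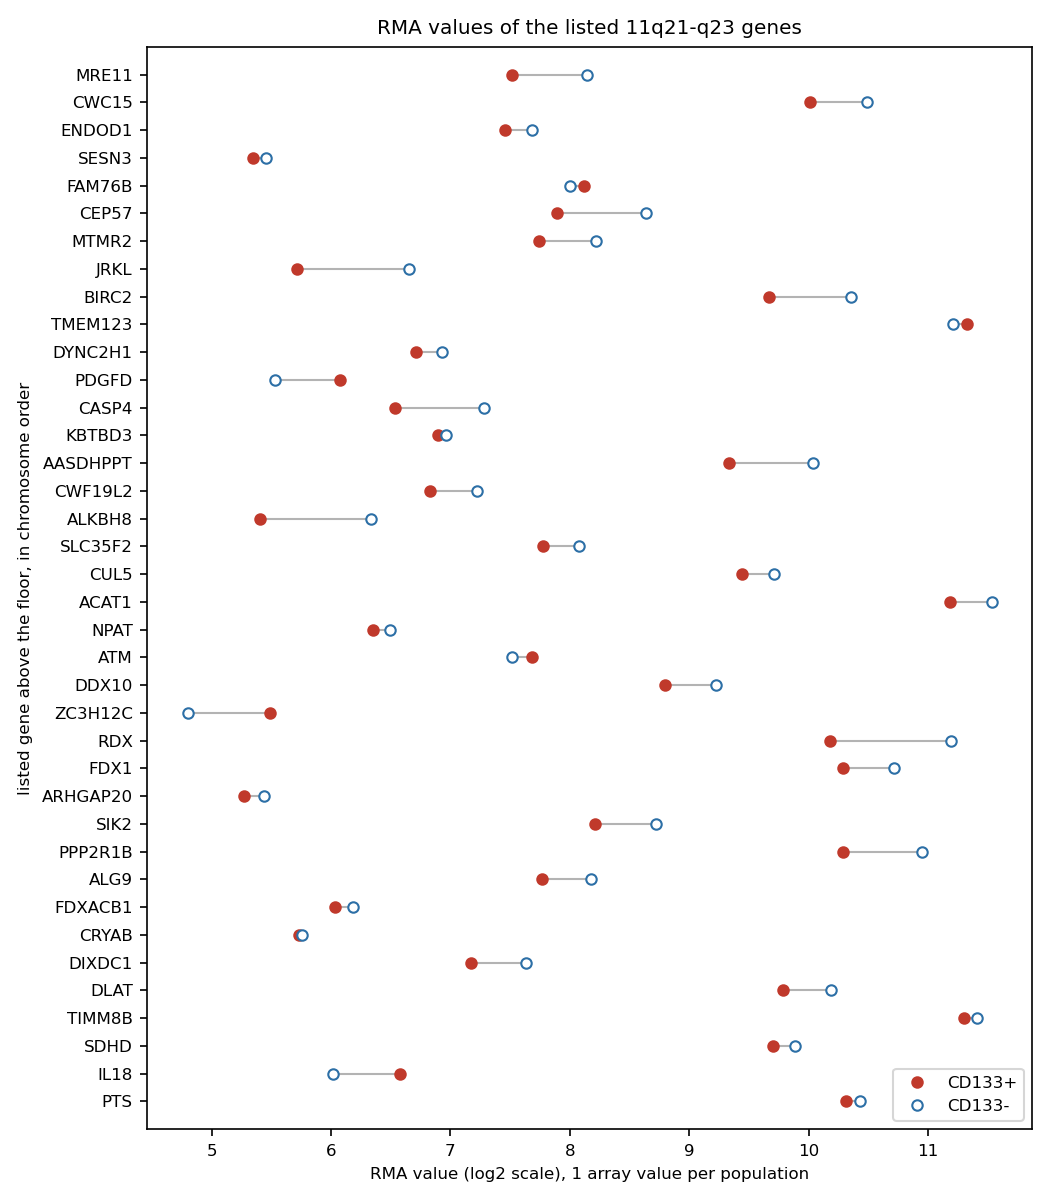
RMA values (log2 scale, horizontal axis) of the 38 listed genes above the floor, in chromosome order from MRE11 at the top to PTS at the bottom. Filled points are the CD133+ value and open points the CD133- value, 1 value each; 32 filled points lie to the left of their open partner.

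The listed genes span a wide range of level, and the lower values in CD133+ were found in most of that range. Of the 9 listed genes with a mean RMA of 10 or more, 8 were lower in CD133+ and the median difference was -0.43, against 0.0033 over the 1491 genes of that level. Of the 8 listed genes between 8 and 10, 7 were lower with a median of -0.42, against -0.05 over 3639 genes. Of the 15 between 6 and 8, 13 were lower with a median of -0.30, against -0.0017 over 5326 genes. In the 6 listed genes under 6 the median was -0.06, against 0.06 over 2660 genes, with values on both sides of 0. Over all genes of these levels, from the highest level down, 49.5%, 57%, 50% and 40.3% were lower.

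The members are taken below by function, in groups made after their values were seen. The widest RMA difference among the listed genes above the floor was that of RDX, which encodes radixin, a linker between the plasma membrane and actin filaments. It had an RMA value of 10.18 in CD133+ and 11.20 in CD133-, and MAS5 intensities of 5338 in CD133+ and 10137 in CD133-. This is 2.02-fold lower in RMA and a log2 ratio of -0.93 in MAS5, just short of 2-fold. In MAS5, ALKBH8 and JRKL differed more, with log2 ratios of -1.33 and -1.29. The other RDX probe sets above the floor had RMA differences of -1.17 and -1.29, so all 3 were lower in CD133+. CEP57, a centrosome protein, stood at 7.89 in CD133+ and 8.64 in CD133- in RMA, with MAS5 intensities of 916 in CD133+ and 1382 in CD133-. All 5 of its probe sets were lower, from -0.74 to -0.17. DYNC2H1, the motor of retrograde transport in cilia, had 6.71 in CD133+ and 6.93 in CD133-, and a MAS5 log2 ratio of 0.041, so its processings differ in sign. ARHGAP20 had 5.27 in CD133+ and 5.44 in CD133-, close to the floor.

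Among the genes for RNA processing, ALKBH8, which modifies wobble uridines of tRNA, had the widest difference. It stood at 5.41 in CD133+ and 6.33 in CD133- in RMA, and its MAS5 intensities were 159.7 in CD133+ and 400.5 in CD133-. CWC15 and CWF19L2, splicing factors, had RMA differences of -0.48 and -0.40. The level of CWC15 was 10.01 in CD133+ and 10.49 in CD133-, and that of CWF19L2 was 6.83 in CD133+ and 7.22 in CD133-. DDX10, an RNA helicase of ribosome assembly, had 8.80 in CD133+ and 9.22 in CD133-. ZC3H12C, a ribonuclease of the Regnase family, lay on the other side, with 5.49 in CD133+ and 4.80 in CD133- and MAS5 intensities of 154 in CD133+ and 97.8 in CD133-. It was the one listed gene at least 1.5-fold higher in both processings, and its CD133- value was under the floor. FDXACB1 stood at 6.03 in CD133+ and 6.19 in CD133- in RMA and had a MAS5 log2 ratio of 0.16.

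The genes of cell death and inflammation did not move one way. BIRC2, which encodes the ubiquitin ligase cIAP1, stood at 9.67 in RMA in CD133+ and 10.36 in CD133-, with MAS5 intensities of 3809 in CD133+ and 6658 in CD133-. It was 1.62-fold lower in RMA and rests on 1 probe set. CASP4, which senses intracellular lipopolysaccharide, had 6.54 in CD133+ and 7.28 in CD133-, with MAS5 intensities of 226 in CD133+ and 324 in CD133-. IL18, the cytokine that caspase-1 matures, was higher in CD133+, with 6.58 against 6.02 in CD133- and MAS5 intensities of 451 in CD133+ and 330.1 in CD133-. CASP1 was below the floor at 4.22 in CD133+ and 4.32 in CD133-.

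All 8 genes of mitochondria and metabolism above the floor had a lower RMA value in CD133+, from -0.70 to -0.11, and 7 were lower in both processings. Over all genes above the floor these shares were 49.9% and 39.1%. AASDHPPT, which attaches the phosphopantetheine group to carrier proteins, had the widest RMA difference, with 9.34 in CD133+ and 10.04 in CD133- and MAS5 intensities of 2524 in CD133+ and 4044 in CD133-. Its further probe set above the floor had an RMA difference of -0.31. FDX1, a ferredoxin that passes electrons to mitochondrial cytochromes P450, had 10.29 in CD133+ and 10.71 in CD133-, and all 3 of its probe sets were lower. DLAT, a subunit of pyruvate dehydrogenase, had 9.78 in CD133+ and 10.19 in CD133-, with 3 of 3 probe sets lower. ACAT1, the thiolase of ketone body metabolism, had 11.18 in CD133+ and 11.53 in CD133-. The differences of SDHD, TIMM8B, PTS and SESN3 were smaller, at -0.18, -0.11, -0.11 and -0.11. SDHD, a membrane subunit of succinate dehydrogenase, had a MAS5 log2 ratio of 0.020, and SESN3, a stress-induced regulator of mTORC1, one of -0.79.

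The genes of signalling and protein turnover above the floor, 7 in number, all had a lower RMA value in CD133+, with a median of -0.46. In 5 of the 7 both processings were lower. Over all genes above the floor, 49.9% had a lower RMA value and 39.1% were lower in both. The group was made after the values were seen, so nothing is read from its count. PPP2R1B, a scaffold subunit of the phosphatase PP2A, had 10.28 in CD133+ and 10.95 in CD133-, and MAS5 intensities of 4257 in CD133+ and 7322 in CD133-. Of its 4 probe sets above the floor 3 were lower and 1 was higher by 0.37. SIK2, a salt-inducible kinase, had 8.21 in CD133+ and 8.72 in CD133-, and MTMR2, a phosphoinositide phosphatase, had 7.74 in CD133+ and 8.22 in CD133-. All 3 probe sets of each were lower. CUL5, the scaffold of a ubiquitin ligase, had 9.45 in CD133+ and 9.71 in CD133-. ALG9, a mannosyltransferase of N-glycan assembly, had 7.77 in CD133+ and 8.18 in CD133-. DIXDC1, a positive regulator of Wnt signalling, had probe sets of both signs, from -0.46 to 0.35, and CRYAB, a small heat-shock protein, had an RMA difference of -0.022. On the main probe sets of DIXDC1 and CRYAB the MAS5 log2 ratios were 0.12 and 0.10, so their processings differ in sign.

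In genome maintenance, the 2 double-strand break genes of the interval differed in direction. MRE11, the nuclease of the MRE11-RAD50-NBN complex, had 7.52 in CD133+ and 8.14 in CD133-, and MAS5 intensities of 772 in CD133+ and 999.5 in CD133-. It rests on 1 probe set above the floor. ATM, the kinase that this complex activates, had 7.68 in CD133+ and 7.52 in CD133- in RMA, and a MAS5 log2 ratio of -0.11. All 4 ATM probe sets above the floor had a higher RMA value in CD133+, from 0.092 to 0.30. NPAT, the histone gene coactivator beside ATM, had 6.35 in CD133+ and 6.50 in CD133-. ENDOD1 had 7.46 in CD133+ and 7.68 in CD133-.

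Of the cell surface and secreted proteins, 3 were above the floor and 2 of them were higher in CD133+. PDGFD, a platelet-derived growth factor, had 6.07 in CD133+ and 5.53 in CD133-, with MAS5 intensities of 269.5 in CD133+ and 167 in CD133-. TMEM123, a transmembrane protein, had 11.33 in CD133+ and 11.21 in CD133-, a difference of 0.12. SLC35F2, a solute carrier, had 7.77 in CD133+ and 8.07 in CD133-. Among the less studied genes, JRKL had 5.71 in CD133+ and 6.65 in CD133-, and MAS5 intensities of 218 in CD133+ and 534 in CD133-, while KBTBD3 had an RMA difference of -0.07. FAM76B was 8.12 in CD133+ and 8.01 in CD133- on its main probe set, but its further 3 probe sets were lower, from -1.05 to -0.52.

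The 12 listed genes below the floor were KDM4D, MAML2, TRPC6, MMP7, CASP1, GUCY1A2, ELMOD1, RAB39A, EXPH5, LAYN, PIH1D2 and NCAM1. Their RMA values ran from 3.49 in TRPC6 to 5.10 in NCAM1 in CD133+ and from 3.54 in MAML2 to 5.11 in KDM4D in CD133-. MAML2, a Notch coactivator, had 4.26 in CD133+ and 3.54 in CD133-, the widest RMA difference of the 12. MMP7, which encodes matrilysin, had 4.12 in CD133+ and 4.02 in CD133-, while its MAS5 intensities were 46.9 in CD133+ and 11.3 in CD133-. No fold is given for these genes, since neither population was above the floor.

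Further probe sets of the members gave mostly the same sign. The 38 genes had 71 probe sets above the floor, of which 60 were lower in CD133+ and 11 higher. Of the 33 further probe sets, 28 had the sign of the main one and 5 the other sign, with a median RMA difference of -0.30. Among the 17 genes with more than 1 probe set above the floor, 13 had every one lower, ATM had every one higher, and FAM76B, PPP2R1B and DIXDC1 had both signs. As a rough measure of spread within these arrays, the differences of 2 probe sets of the same gene were compared in the 6170 genes that had them. The gap between the 2 differences had an SD of 0.35 in RMA and 0.79 in MAS5. The RMA differences of 16 of the 38 listed genes were smaller than this SD, ATM, FAM76B, TMEM123, CUL5 and SDHD among them, and those of 22 were larger. This SD is that of a gap between 2 differences and not of 1 difference, so the split of 16 and 22 is only a rough guide. Probe sets of one gene can read different transcripts, which was not separated from technical spread. The SD leaves out cultures and sorts, and probe sets of one gene share the same RNA.

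**Figure D2:**
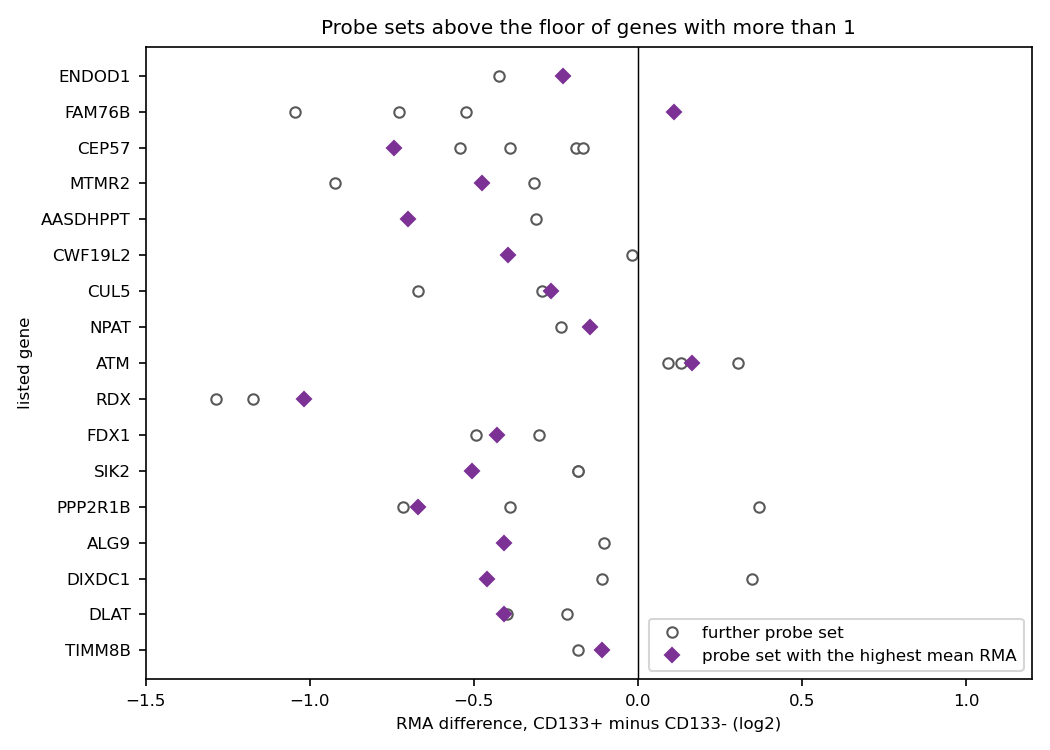
RMA difference, CD133+ minus CD133- (log2, horizontal axis), of each probe set above the floor in the 17 listed genes with more than 1. Diamonds are the main probe set of each gene and open circles the further ones; all 3 points of RDX lie below -1, and FAM76B, PPP2R1B and DIXDC1 cross 0.

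The listed genes do not stand for every gene of the interval. RefSeq places 55 further genes with a named probe set between MRE11 and NCAM1, and 17 of them were above the floor. Of these 17, 9 had a lower RMA value in CD133+ and 8 a higher one, and their median was -0.14. With listed and unlisted genes together, 41 of 55 above the floor were lower, against 49.9% of all genes above the floor. Their median was -0.26. In RMA, the 2 widest differences of the interval were on the CD133+ side and outside the list, while in MAS5 the widest was that of AMOTL1, on the CD133- side. POGLUT3, a protein O-glucosyltransferase, had 7.80 in CD133+ and 5.48 in CD133-, with MAS5 intensities of 923 in CD133+ and 279 in CD133-, which is 4.99-fold higher in RMA. CFAP300, a cilia assembly factor, had 7.32 in CD133+ and 5.01 in CD133-, with MAS5 intensities of 547 in CD133+ and 117 in CD133- and a CD133- value under the floor. Among genes above the floor, POGLUT3 lies between ATM, at 0.16, and DDX10, at -0.43. Beyond DDX10 comes ZC3H12C, which was higher by 0.69. CFAP300 lies between JRKL, at -0.94, and YAP1, at -0.44.

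On the CD133- side, the unlisted POU2AF3, a coactivator of the transcription factor POU2F3, had 4.58 in CD133+ and 5.80 in CD133-, with a CD133+ value under the floor. AMOTL1, an angiomotin family protein that binds YAP, had 5.59 in CD133+ and 6.53 in CD133-. Its MAS5 intensities were 16.3 in CD133+ and 229 in CD133-, a far wider gap than in RMA. YAP1, the coactivator of the Hippo pathway and neighbour of BIRC2, had 9.08 in CD133+ and 9.51 in CD133-. CCDC82, MSANTD4, ANKRD49, NKAPD1 and DCUN1D5 had RMA differences of -0.81, -0.73, -0.43, -0.39 and -0.20.

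Lower values were not confined to the interval. The 25 genes above the floor on the NCAM1 side had a median RMA difference of -0.31. Of these 25, 23 were lower in CD133+, against 49.9% of all genes above the floor. Their widest RMA differences were those of NNMT, at -2.34, and of the apolipoprotein genes APOA1 and APOC3, at -1.80 and -1.17. On the MRE11 side 17 of 25 were lower, with a median of -0.18, and PRSS23 was higher by 2.65. Over the 708 genes of chromosome 11 above the floor outside the interval, the median was -0.04 and 54.9% were lower. The medians of the autosomes and the X chromosome ran from -0.17 on chromosome 8 to 0.19 on chromosome 13.

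**Figure D3:**
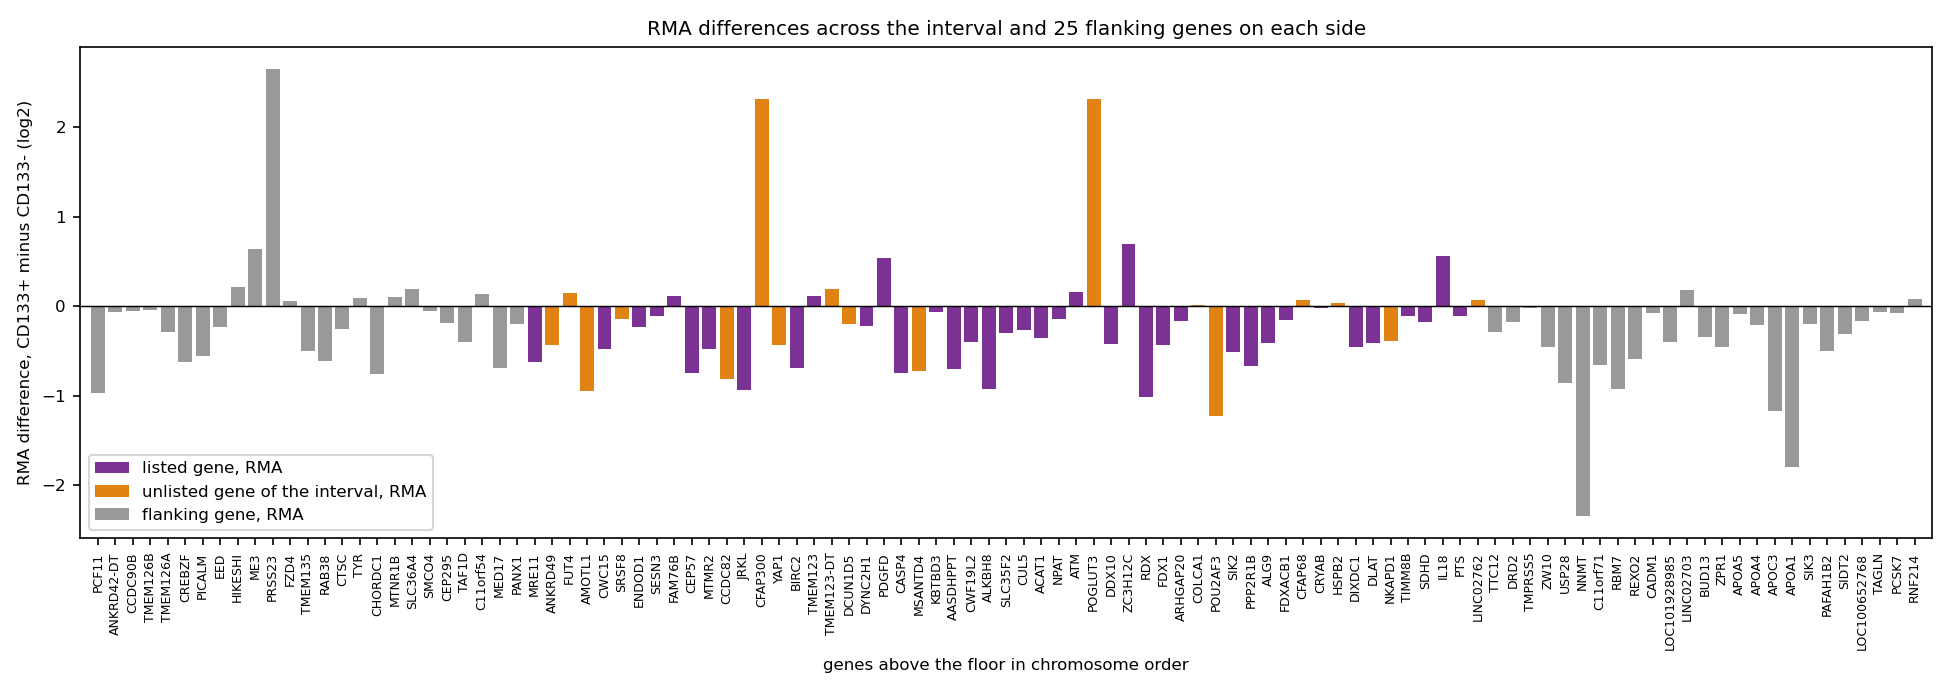
RMA difference, CD133+ minus CD133- (log2, vertical axis), of each gene above the floor in chromosome order, with 25 flanking genes on each side. Purple bars are listed genes, orange bars unlisted genes of the interval and grey bars flanking genes; most bars point down, with POGLUT3 and CFAP300 rising above 2.

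Several members share a start region with a neighbour on the opposite strand, which allows both genes of a pair to be set side by side. Among genes with a window in the promoter table, RefSeq starts lay within 1000 bases of each other in 9 head-to-head pairs with a listed gene, and both genes were above the floor in 7. In RMA on the main probe sets, both genes were lower in CD133+ in 3 of the 7 pairs and both higher in 1. In the other 3 the RMA signs differed. In MAS5 the signs differed only in FAM76B with CEP57. CCDC82 and JRKL, whose starts are 101 bases apart, had RMA differences of -0.81 and -0.94. In MAS5 they had -0.56 and -1.29. Their RMA medians over all probe sets were -0.44 and -0.43, and CCDC82 had -0.14 without _x_at and _s_at probe sets. MRE11 and ANKRD49, at 140 bases, had -0.62 and -0.43. TMEM123 and its divergent transcript TMEM123-DT, at 154 bases, had 0.12 and 0.20. KBTBD3 and AASDHPPT, at 315 bases, had -0.07 and -0.70 on their main probe sets. In MAS5 their log2 ratios were -0.26 and -0.68. The further AASDHPPT probe set above the floor had -0.31 in RMA and -0.32 in MAS5, so the gap depends on the probe set. NPAT and ATM, at 429 bases, had -0.15 and 0.16 in RMA. In MAS5 both were lower in CD133+, at -0.39 and -0.11. FAM76B and CEP57, at 232 bases, had 0.11 and -0.74 on their main probe sets, although the further FAM76B probe sets were lower. FDXACB1 and CFAP68 had -0.16 and 0.07 in RMA, while in MAS5 both were higher in CD133+, at 0.16 and 0.28. These windows are the ones shown above for MRE11, JRKL and AASDHPPT.

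**Figure D4:**
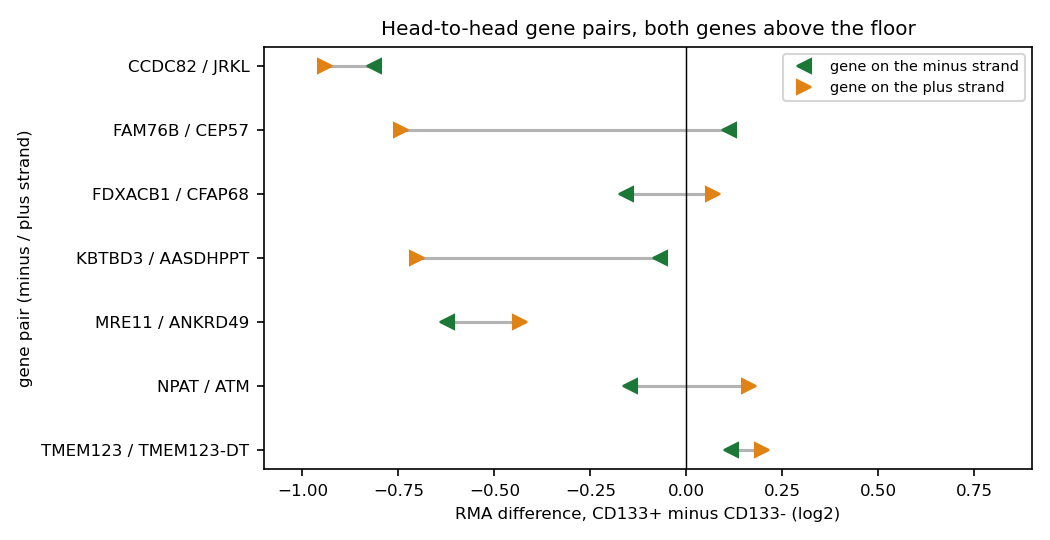
RMA difference, CD133+ minus CD133- (log2, horizontal axis), of both genes in the 7 head-to-head pairs above the floor; triangles point along each gene's strand. CCDC82 with JRKL and MRE11 with ANKRD49 lie close together below 0, while FAM76B with CEP57 and KBTBD3 with AASDHPPT lie far apart. Each point is the main probe set of its gene, and further probe sets, which differ in FAM76B, AASDHPPT and CCDC82 among others, are not drawn. In MAS5, also not drawn, CCDC82 and JRKL had -0.56 and -1.29, and KBTBD3 and AASDHPPT had -0.26 and -0.68.

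The wider pathways of the members were compared through lists of genes, in which no gene was at least 2-fold different in both processings. Beside the counts of these lists, 49.9% of all genes above the floor had a lower RMA value in CD133+ and 48.2% a higher one. Among 14 measured genes of the ATM and MRE11 break response, 11 had lower RMA values in CD133+ and the median was -0.18. Of those lower in RMA, RNF8, ATR, PRKDC and RAD50 had MAS5 log2 ratios of 0.09, 0.02, 0.13 and 0.05. ATM, higher in RMA, had -0.11 in MAS5. Outside the interval, CHEK2, a checkpoint kinase, was higher by 0.75, and TP53BP1, RNF168 and CHEK1 had differences of -0.31, -0.30 and -0.28. RAD50 and NBN, the partners of MRE11, had -0.027 and -0.27. Of 16 genes of pyruvate dehydrogenase, the citric acid cycle and succinate dehydrogenase, 13 were lower with a median of -0.26, and the median of the 14 outside the interval was also -0.26. IDH3A, PDHB and PDHX had -0.51, -0.44 and -0.43, beside DLAT at -0.41, while SUCLG2 was higher by 0.61.

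Of 11 IAP, TRAF and noncanonical NF-kappaB genes, 6 were lower and 5 higher, with a median of -0.09. CYLD and MAP3K14 had differences of -0.92 and -0.47, and TNFAIP3 and CFLAR were higher by 0.60 and 0.47. XIAP, another inhibitor of apoptosis, had -0.30. Of 15 measured inflammatory caspase and inflammasome genes 6 were above the floor, with a median of -0.17, and GSDMD, the pore former cut by these caspases, had -0.29. IL18BP, IL1B and PYCARD had -0.17, -0.16 and 0.21. None of the 9 matrix metalloproteinase genes of the 11q22 cluster was above the floor.

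The ezrin, radixin, moesin list, RDX included, had 6 genes above the floor, 3 lower and 3 higher, with a median of -0.20. Moesin and ezrin genes MSN and EZR, the paralogs of RDX, were higher by 0.16 and 0.12, while their partners NHERF1 and ICAM1 had -0.75 and -0.51 and CD44 had 0.37. The 12 cullins and partners had a median of 0.024, with CUL2 and CUL3 at -0.45 and -0.40 and RBX1 and CUL1 higher by 0.58 and 0.27. Of 9 YAP and TEAD genes above the floor 7 had higher RMA values in CD133+, with a median of 0.13. AXL, WWTR1, AMOTL2 and TEAD1 had 0.72, 0.38, 0.19 and 0.15, and CCN1 and CCN2 had -0.08 and 0.11. Those of AMOTL2, TEAD1, CCN1 and CCN2 were smaller than the SD of 0.35 between probe sets. YAP1 itself had -0.44, and a relation of these genes to YAP1 was not tested.

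PROM1, which encodes CD133, stood at 10.35 in CD133+ and 6.04 in CD133- in RMA, in the direction of the labels. Of hepatocyte-derived tumour markers, 11 of 11 measured genes were above the floor. Among them ALB, AFP and APOA1 had the widest RMA differences, at -3.42, -2.78 and -1.80. In CD133+ 9 of the 11 were lower, against 49.9% of all genes above the floor. The median of the 11 was -0.33. TTR and SERPINA1 were higher by 0.28 and 0.06, and the others ran from -0.89 in APOH to -0.09 in FGB. Of leukocyte markers 4 of 8 measured were above the floor, of endothelial markers 1 of 7, of fibroblast and stellate cell markers 4 of 8 and of erythroid markers 2 of 3. The summed MAS5 intensities take in all measured genes of a list, those below the floor included. They were 395 in CD133+ and 394 in CD133- for leukocyte markers, and 371 in CD133+ and 1009 in CD133- for endothelial markers. For fibroblast markers they were 1087 in CD133+ and 610 in CD133-, and for erythroid markers 264 in CD133+ and 183 in CD133-. In the fibroblast sum COL1A1 had 595 in CD133+ and 430 in CD133-, and LUM, below the floor, 131.7 and 14.7. All 4 fibroblast markers above the floor had higher RMA values in CD133+, from 0.09 to 0.26, against 48.2% of all genes above the floor. The endothelial sum rests on PECAM1, at 6.11 in CD133+ and 7.87 in CD133-, while the other 6 endothelial genes were below the floor. The part of other cells in the listed genes' differences was not tested.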

How the data were processed

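Per the labels, the authors deposited linear intensity values from MAS5 for each population. The log2 values from RMA were likewise deposited, per the labels. The submitters' processing notes name GCOS, MAS5 and RMA, with each version not given in the sources used here. Neither the set of arrays normalized jointly nor whether 1 array gave both columns of a population is stated, so the processings were never treated as replicates. The 2% trimmed means of the MAS5 columns were 500.1. The files used here hold no detection calls, so a floor took their place.

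Gene names came from GEO's annotation of the platform, in which 41097 probe sets had 1 gene, 1801 several and 11777 none or no entry. Of these, 41043 were given today's symbol by gene ID from the GRCh38.p14 table of RefSeq. That table gave gene order, and its promoter table the sequences. No array build is named, so the only coordinates given are those of the 4 RefSeq promoter windows. The differences were computed with Python 3.11.15, pandas 2.3.3 and numpy 2.4.6 and tested on simulated shifts. No test was run, with 1 sample per group.

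Named genes were all members, PROM1, the 10 unlisted genes of the interval with the widest RMA difference, and the 4 widest genes of each pathway list outside the interval. Of the markers, only some hepatocyte-derived ones and PECAM1 were named. RAD50, NBN, RNF8, ATR, PRKDC, XIAP, EZR, CCN1, CCN2 and the flanking genes were named after their values were seen. The members and lists were chosen with earlier results of these data known. The alternatives were MAS5 alone, a pseudocount of 50, RMA alone, other probe set choices, other floors and centring.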

Additional observations from a re-analysis of the deposited data

How the results depend on the processing

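The median RMA difference of the listed genes, -0.33, was below 0 under the 7 alternatives that could move it; centring could not, since the median of all genes was 0.0. It was -0.20 without probe sets ending _x_at or _s_at, -0.20 with no floor and -0.41 with the floor at the 75th percentile, each a move larger than 0.057, the spread between 2 probe sets of a gene divided by the root of the number of genes. The median of the unlisted genes, -0.14, was -0.32 in MAS5 alone, -0.24 with a pseudocount of 50, -0.26 with the median over probe sets, -0.40 without _x_at and _s_at probe sets and 0.0 with no floor. That of the flank on the MRE11 side, -0.18, was -0.30 in MAS5 alone, -0.26 with the median over probe sets and 0.0 with no floor, and that on the NCAM1 side, -0.31, was -0.21 with the median over probe sets and -0.45 with the floor at the 75th percentile.

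The count of listed genes at least 2-fold lower, 0, was 2 in MAS5 alone, 2 with a pseudocount of 50, 1 in RMA alone and 1 with the median over probe sets. At 1.5-fold, the 7 lower genes were 2 with the median over probe sets and 4 when _x_at and _s_at probe sets were dropped. The 1 gene higher at 1.5-fold became 2 in MAS5 alone, 0 with a pseudocount of 50, 0 with the median over probe sets, 2 with no floor and 0 with the floor at the 75th percentile. Requiring both populations above the floor also gave 0, an alternative chosen after seeing the data. PPP2R1B reversed to 0.37 without _x_at and _s_at probe sets. In MAS5 alone 32 of 38 listed genes kept the sign of their RMA difference. The causes of these moves were not tested. No paired analysis was possible because each population had 1 value per processing. The absence of replicates limits every difference given here.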

Other observations

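In RMA, the widest differences of the interval did not follow its median, while in MAS5 the widest, that of AMOTL1 at -3.81, did. The MAS5 intensity of AMOTL1 in CD133+ was 16.3, under the column median of 86.0, so the size of this ratio is uncertain. With a pseudocount of 50 it was -2.07. POGLUT3 was higher in CD133+ by 2.32 in RMA and by 1.73 in MAS5, in a stretch where 41 of 55 genes above the floor were lower. CFAP300 was also higher in CD133+, but its CD133- value was under the floor, so the size of its difference is uncertain. The 7 head-to-head pairs with both genes above the floor were likewise mixed in RMA on the main probe sets. Gaps between the RMA differences of both genes ran from 0.080 in TMEM123 with TMEM123-DT to 0.85 in FAM76B with CEP57. The signs of NPAT with ATM and of FDXACB1 with CFAP68 differed in RMA but not in MAS5.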
